A study of Homo sapiens with 12 samples.

Results

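This account covers 10 intermediate filament genes, read from a table of 28278 genes: the keratins KRT8, KRT18, KRT19 and KRT10, the cytoplasmic filament genes VIM, NES and SYNM, and the lamins LMNA, LMNB1 and LMNB2. They were chosen by symbol, and with it known that KRT19 was lost in the knockout cells, so values of knockout against wild-type cells are given as a description without a test. All 10 were found, and all 10 passed the filter on low counts, KRT19 only through its wild-type libraries.

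RNA was sequenced in K562, an established human erythroleukaemia line, from unedited cells (WT) and from HRG1-KO cells, in which HRG1, the heme transporter encoded by SLC48A1, is knocked out. Each genotype was left untreated or received 0.75 mM sodium butyrate, an inhibitor of histone deacetylases, in a first dose 24 h after plating and a second 48 h later. Harvest was 6 h after the second dose, on day 8 of differentiation, which gave 4 groups of 3 libraries. The sources used here do not state how the knockout was made, how many clones it rests on, or whether replicates were separate cultures, so a p-value measures only the spread between these libraries.

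Intermediate filaments are rope-like polymers of the cytoplasm and, as lamins, of the inner face of the nuclear envelope. Keratins are obligate heteropolymers of a type I chain (KRT10, KRT18, KRT19) and a type II chain (KRT8), and are best known from epithelia, where KRT8 pairs with KRT18 or KRT19. Vimentin polymerises on its own in mesenchymal and many blood cells, and nestin and synemin join filaments that vimentin or desmin build. A-type lamins from LMNA stiffen the nucleus, whereas the B-type lamins are made in nearly all cells. Red cell precursors are known to lose vimentin and to lower their lamins as they mature.

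Library totals ran from 19963594 to 30348538 counts. SLC48A1 itself was lower in every KO library than in any WT library, by a log2 fold change of -3.63 untreated (standard error, SE, 0.35, adjusted p = 1.82e-05) and -3.07 treated (SE 0.34, adjusted p = 7.41e-05, edgeR quasi-likelihood test, Benjamini-Hochberg adjustment over 15805 genes). Of the markers of K562, all 10 were tested, and their summed level was 8002 to 17510 CPM (counts scaled to library size, with TMM factors) in untreated WT cells and 3491 to 6172 CPM in untreated KO cells. After butyrate the same sum was 26327 to 56643 CPM in WT and 4493 to 6433 CPM in KO. The globin gene HBG2 was the most abundant of the 10, so these sums do not describe each marker. The libraries numbered 1 had the largest share of ribosomal RNA (RNA28SN5) in all 4 groups, over a range of 0.673% to 5.63%. The share fell from number 1 to 2 to 3 in every group, for example 4.69%, 2.86% and 0.930% in untreated WT. Number 1 of treated KO, at 2.30%, lay below number 2 of untreated WT. Results that rest on the libraries numbered 1 are given with and without them, and their part in the results was not tested.

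Sequences just upstream of a gene's start are shown for the members whose level differed most between libraries or groups and whose entry in the RefSeq promoter table (GRCh38.p14) lay at an annotated principal start: the KRT10, NES and SYNM genes and LMNB1. Each is the 250 bases before the start, 5′ to 3′ on the gene's strand. Capitals mark matches on either strand to the motifs searched. These were the letters TATAAA for a TATA box, the letters GGGCGG for a GC box, the letters AGATAA for a GATA motif and the letters CCAAT for a CCAAT box. Matches may overlap one another, as a pair of GC boxes does in SYNM. The KRT10 window lies at chr17:40822615-40822864 on the minus strand, NES at chr1:156677408-156677657 on the minus strand, SYNM at chr15:99104830-99105079 on the plus strand and LMNB1 at chr5:126776886-126777135 on the plus strand.
KRT10: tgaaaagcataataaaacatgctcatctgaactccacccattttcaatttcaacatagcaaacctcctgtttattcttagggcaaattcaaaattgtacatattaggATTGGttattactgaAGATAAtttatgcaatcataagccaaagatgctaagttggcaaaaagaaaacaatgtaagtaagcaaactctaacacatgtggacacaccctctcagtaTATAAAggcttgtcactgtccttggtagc
NES: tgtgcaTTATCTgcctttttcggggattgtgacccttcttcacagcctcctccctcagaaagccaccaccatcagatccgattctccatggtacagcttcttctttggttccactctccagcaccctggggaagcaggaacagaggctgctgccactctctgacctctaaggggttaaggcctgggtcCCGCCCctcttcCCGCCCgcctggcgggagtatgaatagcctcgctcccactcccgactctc
SYNM: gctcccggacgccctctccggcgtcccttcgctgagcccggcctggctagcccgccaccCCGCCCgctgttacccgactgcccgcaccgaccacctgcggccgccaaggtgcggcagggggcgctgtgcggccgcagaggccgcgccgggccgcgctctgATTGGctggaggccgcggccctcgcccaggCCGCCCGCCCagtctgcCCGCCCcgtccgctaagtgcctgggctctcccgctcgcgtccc
LMNB1: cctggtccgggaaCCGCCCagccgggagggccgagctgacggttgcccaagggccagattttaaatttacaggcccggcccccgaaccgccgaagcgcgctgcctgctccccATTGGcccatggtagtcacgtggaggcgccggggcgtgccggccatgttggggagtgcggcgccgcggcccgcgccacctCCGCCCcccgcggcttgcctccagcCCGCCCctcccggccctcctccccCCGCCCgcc

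The KRT10 window held 0 CG dinucleotides, 1 TATA box, 1 GATA motif and 1 CCAAT box. By contrast, SYNM held 34 CG dinucleotides and LMNB1 held 29, each with 4 GC boxes and 1 CCAAT box, against a median of 11 CG dinucleotides over all 35116 windows of the table. NES lay between, with 8 CG dinucleotides, 2 GC boxes and 1 GATA motif. Among all windows, 10.7% held a TATA box, 42.6% a GC box, 9.17% the GATA motif and 32.0% a CCAAT box. Of the 10 members 8 were in that table, and 5 had an entry at a principal start.

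KRT19, the smallest keratin and a type I partner of KRT8, lies at chr17:41523617-41528308 (GRCh38) on the minus strand, in the type I keratin cluster. Untreated WT libraries held 1747, 1718 and 3395 KRT19 counts, or 94.6, 79.7 and 114 CPM. Treated WT libraries held 1818, 3825 and 4083 counts, or 94.2, 163 and 129.8 CPM. The 3 untreated KO libraries held 0 counts each, and the treated KO libraries held 0, 5 and 1. The groups were thus separated by the whole range of the gene, and no KO library came near a WT library.

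With a detection limit of 3 counts in each library, KRT19 was at least 715-fold lower in untreated KO than in untreated WT cells (0 of 71538330 counts). In treated cells the 6 counts of 78314865 put it 1787-fold lower (95% exact Poisson interval 821 to 4870, which covers counting error only). No fold was taken between the KO groups, since both lie at or near that limit. In bulk RNA, fewer cells that make a transcript and less of it per cell cannot be told apart. In WT cells butyrate gave KRT19 a log2 fold change of 0.42 (SE 0.32, adjusted p = 0.548, edgeR), from 96.2 ± 17.3 to 129 ± 34.5 CPM (SD, n = 3), and the treated and untreated libraries overlapped.

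**Figure D1:**
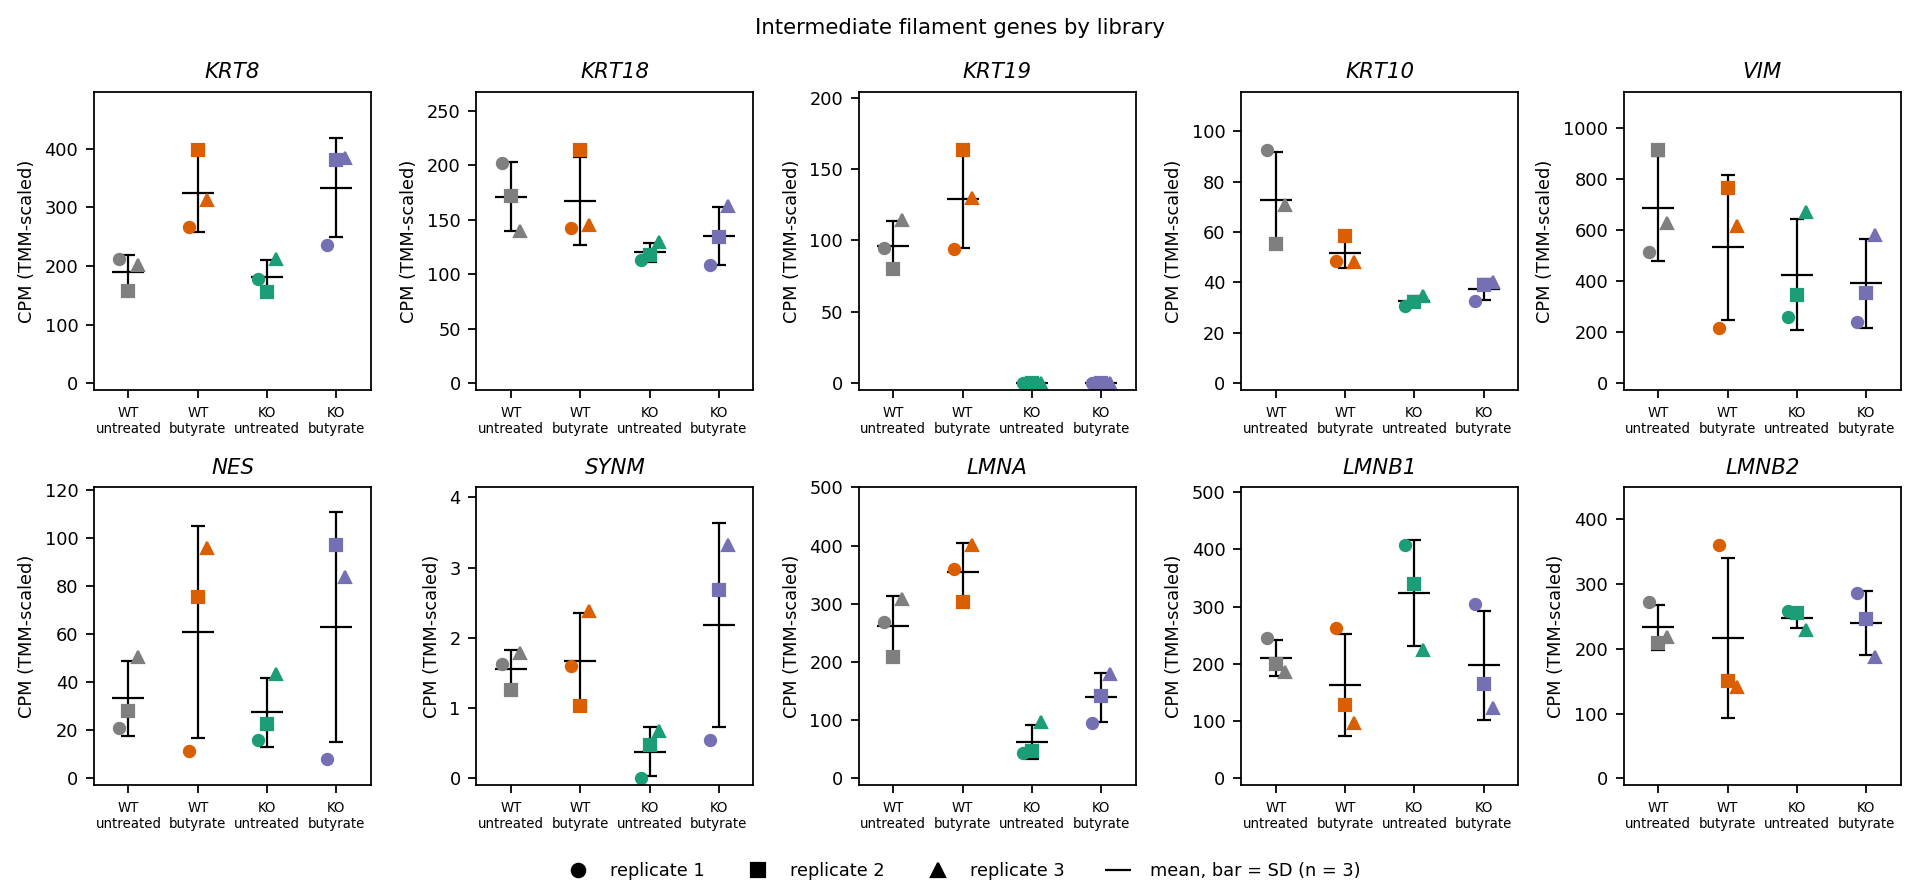
Level of each of the 10 genes in each of the 12 libraries, in TMM-scaled CPM on a linear axis from 0, with the mean and SD of 3 libraries per group and the replicate number as the symbol. KRT19 sits at 0 in the untreated KO libraries and near 0 in the treated ones, KRT8 is higher after butyrate in both genotypes, and the libraries numbered 1 are the lowest of their group for VIM and NES.

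KRT10, a type I keratin of differentiating epidermis, was the other keratin among the 10 members whose KO and WT libraries did not overlap in either state. Untreated WT libraries gave 92.6, 55.1 and 71.0 CPM and untreated KO libraries 30.8, 32.3 and 34.6 CPM. Treated libraries gave 48.7, 58.3 and 48.1 CPM in WT and 32.5, 39.1 and 40.4 CPM in KO. The KO-to-WT log2 fold change was -1.16 untreated and -0.47 treated. The butyrate effect on KRT10 was -0.50 in WT (SE 0.20, adjusted p = 0.222) and 0.20 in KO (SE 0.20, adjusted p = 0.645), and neither passed the edgeR test. The difference between these effects was 0.69 (SE 0.29, adjusted p = 1.00), so an unlike response of the genotypes was not shown.

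KRT18, the type I keratin of simple epithelia, overlapped between treated and untreated libraries in both genotypes. It measured 202, 172 and 139.6 CPM in untreated WT and 113, 117 and 129.7 CPM in untreated KO cells, which did not overlap, with a log2 fold change of -0.51. Treated libraries gave 142, 214 and 145 CPM in WT and 109, 134 and 162 CPM in KO, and there the genotypes overlapped (-0.31). The butyrate effect was -0.03 in WT (SE 0.22, adjusted p = 0.964) and 0.17 in KO (SE 0.22, adjusted p = 0.722, edgeR).

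KRT8, the type II partner of both KRT18 and KRT19, overlapped between the genotypes in both states. Its untreated libraries gave 213, 158 and 201 CPM in WT and 179, 155 and 212 CPM in KO, and the groups overlapped (log2 fold change -0.07). After butyrate the values were 266, 398 and 312 CPM in WT and 236, 381 and 384 CPM in KO (0.04). Every treated library lay above every untreated library of its genotype, which 11.3% of tested genes also did in WT and 12.6% in KO. The log2 fold change was 0.77 in WT (SE 0.24, adjusted p = 0.112, edgeR), with an adjusted p of 0.0515 with the replicate number as a block. In KO it was 0.88 (SE 0.24, adjusted p = 0.0654), and the blocked fit passed the threshold there (adjusted p = 0.0268). Without the libraries numbered 1 both passed, at 0.97 in WT (adjusted p = 0.0279) and 1.04 in KO (adjusted p = 0.0197, edgeR). The effects in WT and KO differed by 0.10 (SE 0.33, adjusted p = 1.00).

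The pair was also compared as a ratio, which does not depend on scaling between libraries. The KRT8-to-KRT18 ratio of counts was 1.14 ± 0.272 in untreated and 1.96 ± 0.163 in treated WT cells (SD, n = 3), a log2 difference of 0.81. In KO cells it was 1.51 ± 0.167 and 2.46 ± 0.343, a difference of 0.70. Treated and untreated libraries did not overlap in either genotype, and the two-sided exact permutation p was 0.1 in each, the smallest that 3 against 3 libraries allow. A sign-flip test within replicate numbers gave an exact p of 0.25, also its smallest. These genes overlap on opposite strands of chromosome 12 (KRT8 at chr12:52897187-52949954, KRT18 at chr12:52948871-52952901), and whether counting used strand is not given in the sources used here, so reads of the overlap may be shared.

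**Figure D2:**
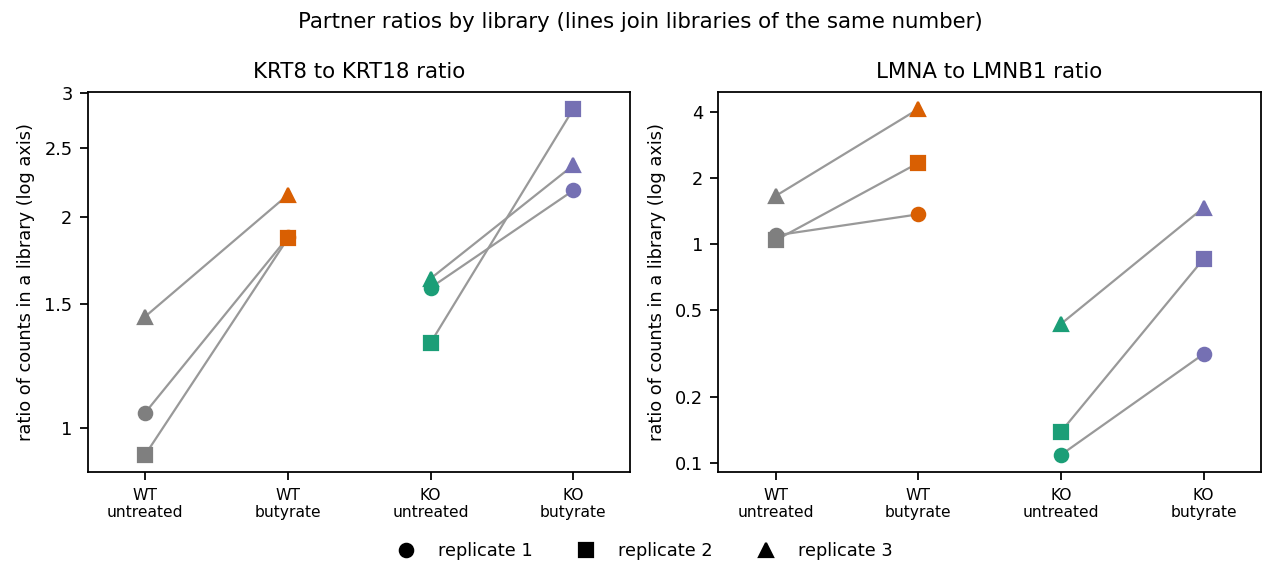
Ratio of KRT8 to KRT18 counts and of LMNA to LMNB1 counts in each library on log axes, with lines joining untreated and treated libraries of the same genotype and replicate number. Every line slopes upward, and the LMNA-to-LMNB1 ratio of the KO libraries begins far below that of the WT libraries.

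VIM encodes vimentin and had the highest mean level per kilobase of exon in all 4 groups. It gave 512, 912 and 627 CPM in untreated WT, 215, 764 and 616 CPM in treated WT, 259, 344 and 670.0 CPM in untreated KO, and 240.4, 352 and 581 CPM in treated KO. All groups overlapped. Butyrate effects were -0.36 in WT (SE 0.48, adjusted p = 0.750) and -0.12 in KO (SE 0.48, adjusted p = 0.930, edgeR), and KO-to-WT log2 fold changes were -0.69 untreated and -0.44 treated. The libraries numbered 1 were the lowest for VIM in 4 of 4 groups. VIM-AS1, which overlaps VIM on the opposite strand, held 76 to 528 counts, or 1.57% to 3.63% of the VIM count.

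NES, whose nestin is known from progenitor cells and joins vimentin filaments, split by replicate number. It gave 21.1, 28.0 and 50.6 CPM in untreated WT and 11.4, 75.2 and 96.0 CPM in treated WT. In KO it gave 16.2, 22.8 and 43.3 CPM untreated and 8.18, 97.0 and 83.7 CPM treated. Within the libraries numbered 1, the treated value was lower than the untreated one, by log2 differences of -0.88 in WT and -0.98 in KO. In numbers 2 and 3 it was higher, by 1.42 and 0.92 in WT and by 2.09 and 0.95 in KO. Over all libraries the effect was 0.87 in WT (SE 0.80, adjusted p = 0.626) and 1.20 in KO (SE 0.81, adjusted p = 0.447, edgeR). Without the libraries numbered 1 it was 1.10 in WT (adjusted p = 0.0629) and 1.43 in KO, which passed (adjusted p = 0.0243). In KO neither the replicate block (adjusted p = 0.305) nor DESeq2 (adjusted p = 0.471) passed.

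SYNM, encoding synemin, a large protein that ties filaments to the cell's attachment sites, was the weakest member expressed in both genotypes. WT libraries held 30, 27 and 53 counts untreated and 31, 24 and 75 treated, and KO libraries 0, 10 and 20 untreated and 12, 81 and 103 treated. As levels these were 1.55 ± 0.272, 1.67 ± 0.682, 0.381 ± 0.344 and 2.18 ± 1.45 CPM (SD, n = 3) in the same order. The untreated KO libraries lay below all untreated WT libraries (log2 fold change -1.97), whereas treated KO and WT libraries overlapped (0.39). In KO cells butyrate gave 2.47 (SE 0.92, adjusted p = 0.158, edgeR), higher within each replicate number (2.97, 2.31 and 2.18). The adjusted p was 0.0629 with the replicate block, 0.0399 by DESeq2 and 0.0322 without the libraries numbered 1. In WT the effect was 0.11 (SE 0.86, adjusted p = 0.972), and the difference between genotypes was 2.36 (SE 1.25, adjusted p = 1.00).

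LMNA, encoding lamins A and C, showed the widest genotype gap of the members after KRT19. Untreated libraries gave 269.5, 208 and 309 CPM in WT and 44.3, 47.1 and 97.1 CPM in KO. Treated libraries gave 360.4, 303 and 401 CPM in WT and 95.8, 142 and 179.5 CPM in KO. No KO library reached a WT library in either state, and the log2 fold changes were -2.06 untreated and -1.35 treated. Treated KO libraries also lay below the untreated WT libraries.

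The treated library held more LMNA than the untreated one in each replicate number: by 0.42, 0.55 and 0.38 in WT and by 1.11, 1.59 and 0.89 in KO, on the log2 scale. The treated and untreated groups still overlapped in each genotype, in KO only by the untreated library at 97.1 and the treated one at 95.8 CPM. In KO the fitted effect was 1.15 (SE 0.32, adjusted p = 0.0698, edgeR) without the block and 1.19 with it, which passed the threshold (adjusted p = 0.00615). DESeq2 also passed (adjusted p = 0.00996), whereas the edgeR fit without the libraries numbered 1 did not (1.13, adjusted p = 0.0529). In WT the edgeR effect was 0.44 (SE 0.31, adjusted p = 0.514, with the block 0.219). The KO effect exceeded the WT effect by 0.71 (SE 0.44, adjusted p = 1.00), which did not pass.

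LMNB1 and LMNB2 encode the B-type lamins B1 and B2. LMNB1 gave 246, 199.6 and 186 CPM in untreated WT, 263, 129 and 96.6 CPM in treated WT, 407, 339.5 and 225 CPM in untreated KO, and 304, 166 and 122 CPM in treated KO. The groups overlapped in every comparison, with KO-to-WT log2 fold changes of 0.62 untreated and 0.28 treated. In KO cells the treated library was the lower one in each replicate number (-0.42, -1.03 and -0.88), for a fitted effect of -0.71 (SE 0.39, adjusted p = 0.342, edgeR). With the replicate block the effect was -0.78, which passed (adjusted p = 0.0289), and without the libraries numbered 1 it was -0.99 (adjusted p = 0.0318). By DESeq2 it was -0.68, which did not pass (adjusted p = 0.344). In WT the edgeR effect was -0.37 (SE 0.39, adjusted p = 0.684), and the libraries numbered 1 went the other way there, by 0.10 against -0.63 and -0.95. Without those libraries the WT effect was -0.79 (adjusted p = 0.0729, edgeR).

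LMNB2 gave 272, 208 and 218 CPM in untreated WT and 258, 255 and 229 CPM in untreated KO. Its treated libraries gave 359.5, 150.0 and 141 CPM in WT and 286, 246 and 187 CPM in KO. Groups overlapped throughout, and butyrate effects were -0.10 in WT (SE 0.32, adjusted p = 0.913) and -0.05 in KO (SE 0.32, adjusted p = 0.963, edgeR). Within replicate numbers the WT differences were 0.40, -0.47 and -0.62. Without the libraries numbered 1 the effect was -0.56 in WT (adjusted p = 0.0935) and -0.18 in KO (adjusted p = 0.590, edgeR). The libraries numbered 1 were the highest for both B-type lamins in 4 of 4 groups. The same libraries had the highest summed level of 15 proliferation genes in each group, out of a range of 2367 to 4014 CPM, and whether that plays a part was not tested. Of these 15 genes, butyrate called 0 in WT and 0 in KO, beside 2.35% and 3.4% of all tested genes (edgeR). At an unadjusted p under 0.05 there were 0 and 3 (background 18% and 19.8%), and the block called 1 and 2 (background 8.61% and 11.7%). Without the libraries numbered 1, 2 were called lower in WT and 3 lower in KO (background 11.4% and 13.1%).

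The ratio of A-type to B-type lamin was lower in KO than in any WT library when untreated, and overlapped between treated genotypes. The LMNA-to-LMNB1 ratio of counts was 1.10, 1.04 and 1.66 in untreated WT and 0.109, 0.139 and 0.432 in untreated KO libraries. After butyrate it was 1.37, 2.35 and 4.15 in WT and 0.315, 0.857 and 1.47 in KO. The treated-to-untreated log2 difference was 0.94 in WT and 1.98 in KO. Groups overlapped in both, and the two-sided exact permutation p was 0.2 in each. Within replicate numbers all 3 differences were positive in each genotype, with an exact sign-flip p of 0.25, the smallest it allows.

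Counted over the members, butyrate called 0 of 10 in WT, against 2.35% of all tested genes, and in KO 0 of the 9 other than KRT19, against 3.4% (edgeR quasi-likelihood test). KRT19 is left out in KO because its libraries held 6 counts in all. At an unadjusted p under 0.05 there were 2 in WT (KRT10 and KRT8, background 18%) and 3 of these 9 in KO (KRT8, SYNM and LMNA, background 19.8%). DESeq2 called KRT8 in WT (adjusted p = 0.0333, background 8.43%) and KRT8, SYNM and LMNA in KO (background 9.74%). The replicate block called 0 in WT (background 8.61%) and 3 in KO, namely KRT8, LMNA and LMNB1 (background 11.7%). Without the libraries numbered 1, KRT8 was called in WT (background 11.4%), and KRT8, NES, SYNM and LMNB1 in KO (background 13.1%). The interaction, which is the KO effect minus the WT effect, called 0 of the same 9 (background 0%), with KRT10 alone at an unadjusted p under 0.05 (background 4.16%), and the block (background 0.019%) and DESeq2 (background 0.59%) called 0 as well.

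The median log2 fold change of the 9 members other than KRT19 was -0.03 for butyrate in WT and 0.20 in KO, beside 0.02 and 0.00 over all tested genes. Between genotypes, of the same 9 members KRT10, KRT18, SYNM and LMNA lay below WT without overlap in untreated cells, and KRT10 and LMNA in treated cells. KRT19, whose loss was known beforehand, is left out here. Of all tested genes, 20.2% and 16% lay below in this way. In either state 0 members lay above, beside 22.2% and 17.9% of tested genes.

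**Figure D3:**
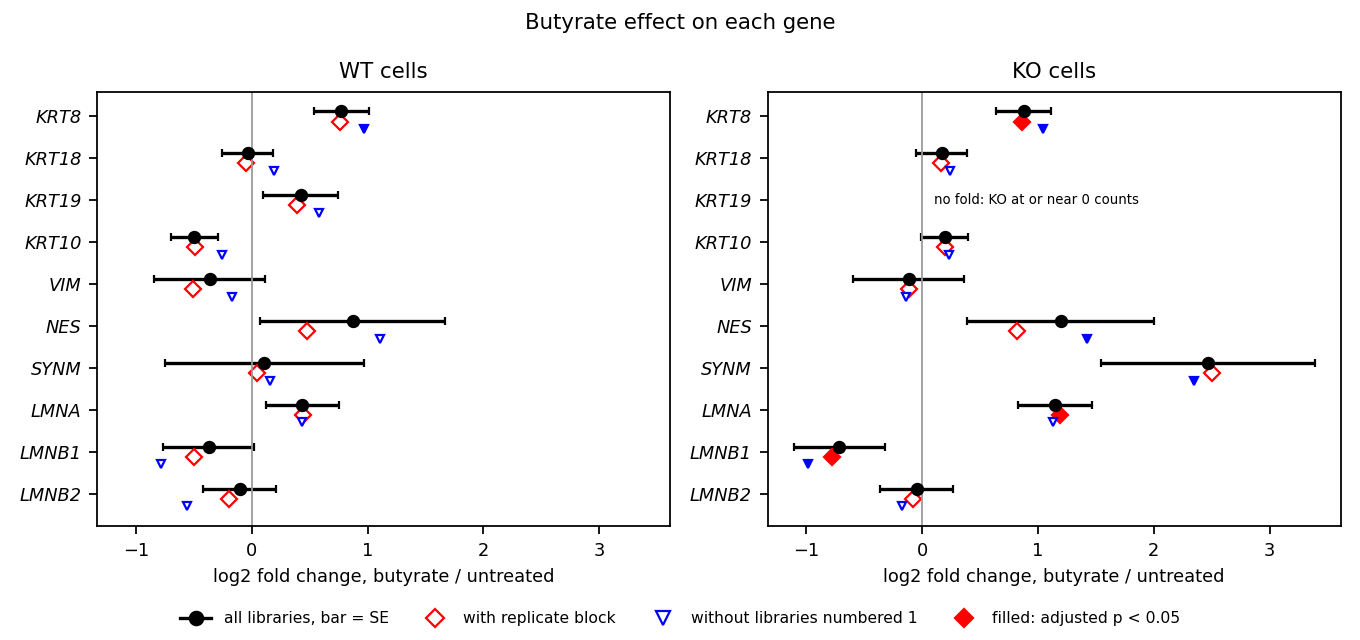
Log2 fold change of treated over untreated cells for each gene in WT and in KO cells, with SE bars for the fit to all libraries, and the same with the replicate number as a block and without the libraries numbered 1. Filled coloured symbols have an adjusted p under 0.05: in KO cells these are KRT8, LMNA and LMNB1 with the block, and KRT8, NES, SYNM and LMNB1 without the libraries numbered 1.

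Per kilobase of exon (GENCODE v29 gene models, so only approximate for the annotation behind the counts), untreated WT cells ranked VIM first at 366 ± 110.1 CPM per kb (SD, n = 3). KRT18 (85.2), LMNB1 (70.9), KRT19 (69.2), LMNA (62.3), LMNB2 (49.9), KRT8 (41.6) and KRT10 (34.3) followed, and neighbours among these 7 overlapped over their 3 libraries. NES (5.98) and SYNM (0.199) came last, each apart from its neighbours. In untreated KO cells the order was VIM (227), LMNB1 (109), KRT18 (59.7), LMNB2 (52.9), KRT8 (39.7), KRT10 (15.3), LMNA (14.9), NES (4.93), SYNM (0.0488) and KRT19 (0). There, KRT10 overlapped LMNA and SYNM overlapped KRT19, and the other neighbours did not overlap. LMNA thus stood at the fifth place in WT and at the seventh in KO.

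The rest of the family was mostly silent. Of 62 other intermediate filament genes (51 keratins and 11 others), 35 had 0 counts in all libraries and 10 were tested. Of these 10, 6 reached the level of the count filter in fewer than 3 untreated libraries and passed only with the treated ones. This leaves 4 for a test of butyrate in WT. Butyrate called 0 of the 4 in WT (0 at an unadjusted p under 0.05, 0 with the block, edgeR). In KO it raised DES, the muscle filament desmin (2.58, SE 0.54, adjusted p = 0.0262, edgeR), beside 3.4% of all tested genes called. DES went from 2.66 ± 2.07 to 16.2 ± 2.91 CPM in KO (SD, n = 3). BFSP1 of the eye lens and IFFO2 are given as counts in KO with no test, since every untreated KO library held fewer than 10. BFSP1 held 1 to 5 counts in untreated and 20 to 49 in treated KO libraries. GFAP, the astrocyte filament, is among the 6 left untested, and held 0 to 6 counts in untreated and 33 to 80 in treated KO libraries. The block called DES in KO, and so did the fit without the libraries numbered 1.

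Between genotypes, 5 of the 10 (IFFO2, KRT12, KRT13, KRT15 and KRT79) reached the filter's level in fewer than 3 KO libraries and passed only with the WT libraries, so they are given as counts or levels with no test. Of the other 5, DES was lower in untreated KO cells (-3.17, adjusted p = 0.00129, edgeR) and 0 differed in treated ones, beside 22.6% and 19% of all tested genes called. BFSP1 and others of these 5 held fewer than 10 counts in every untreated KO library, so they have no test there. BFSP1 held 20 to 73 counts in untreated WT and 1 to 5 in untreated KO libraries. The block called DES as lower in both states (background 33% and 29.2%). IFFO2 measured 6.60 ± 2.02 CPM in untreated WT and 0.157 ± 0.195 CPM in untreated KO cells. It held 7, 2 and 0 counts in the untreated and 3, 26 and 52 in the treated KO libraries. KRT79 held 0 to 15 counts in WT and 0 to 6 in KO libraries. KRT13 held 11, 6 and 33 counts in untreated and 69, 54 and 58 in treated WT libraries. KRT15 held 10, 4 and 17 and then 1, 59 and 47, and KRT12 26, 12 and 12 and then 10, 48 and 60. KRT12, KRT13 and KRT15 were at 0 in every untreated KO library, and in treated KO libraries KRT12 held 4, 6 and 10 counts, KRT13 0, 1 and 0, and KRT15 0 throughout.

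**Figure D4:**
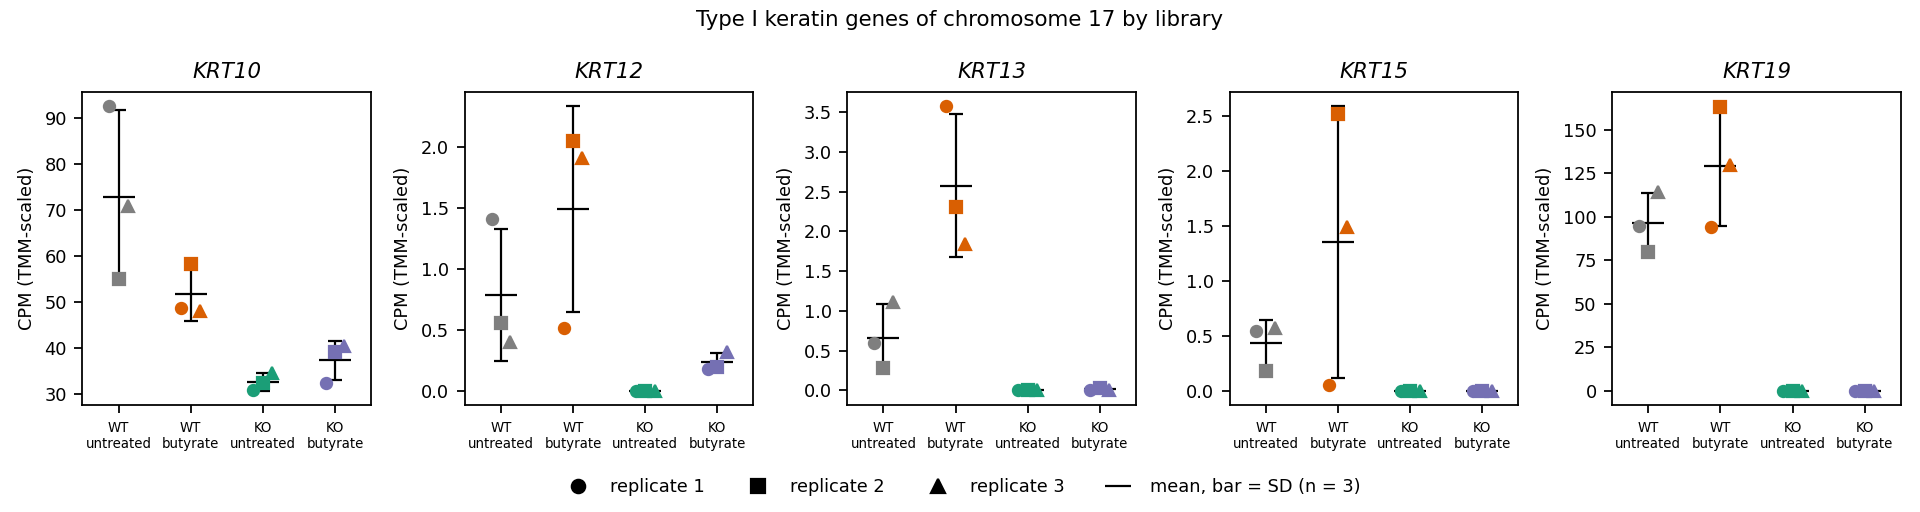
Level of 5 type I keratin genes of chromosome 17 in each library, in TMM-scaled CPM on linear axes that differ between panels, with the mean and SD of 3 libraries per group. KRT12, KRT13, KRT15 and KRT19 are at 0 in untreated KO cells, while KRT10 stays between 30.8 and 40.4 CPM in all KO libraries.

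Around KRT19, 16 of its 20 nearest annotated genes were in the table, 8 of them at 0 counts in all libraries, and 3 were tested. Those were KRT15, KRT13 and EIF1, a translation initiation factor, whose KO-to-WT log2 fold changes of -0.27 untreated (SE 0.29, adjusted p = 0.552) and -0.51 treated (adjusted p = 0.251, edgeR) did not pass. Beside the KRT8 and KRT18 pair, 6 neighbours were tested. EIF4B alone was called between untreated genotypes (0.71, adjusted p = 0.0349, edgeR), beside 22.6% of all tested genes. After treatment 0 were called (background 19%). The 6 include KRT79, with 0 to 6 counts in KO libraries, and SOAT2, with 0 to 2 counts in untreated libraries.

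Among 18 proteins that link intermediate filaments to junctions or to other fibres, 16 were tested. For butyrate 15 remain, since DSP passed the filter only with the treated libraries, and 2 were called in WT and 3 in KO, beside 2.35% and 3.4% of all tested genes. Butyrate raised PPL, the cell-envelope linker periplakin, in both genotypes (WT 2.96, SE 0.66, adjusted p = 0.0393; KO 2.64, SE 0.64, adjusted p = 0.0426). PPL was low, from 0.761 ± 0.112 to 5.95 ± 2.81 CPM in WT and from 1.27 ± 0.592 to 8.02 ± 5.22 CPM in KO (SD, n = 3). Butyrate lowered the desmosomal cadherin DSG2 in both (WT -1.20, adjusted p = 0.0218; KO -1.23, adjusted p = 0.0174, edgeR). EPPK1, the keratin-binding epiplakin, rose in KO by 3.94 (SE 0.87, adjusted p = 0.0308), from 2.81 ± 2.51 to 44.2 ± 36.6 CPM. In untreated cells 3 linkers of 16 were higher and 3 lower in KO, beside 22.6% of all tested genes called, among them EPPK1 (-4.78, adjusted p = 0.00217), plectin PLEC (-1.19, adjusted p = 0.0163), plakoglobin JUP (-1.10, adjusted p = 0.0129) and dystonin DST (1.16, adjusted p = 0.0125). In treated cells again 3 of 15 were higher and 3 lower (background 19%), with DST at 1.50, EPPK1 at -2.56, PKP3 at -2.52 and JUP at -1.08. Without the libraries numbered 1, butyrate called 5 linkers of 15 in WT and 6 in KO (background 11.4% and 13.1%). Median log2 fold changes of these linkers lay between -0.12 and 0.14 in the butyrate and genotype comparisons.

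Of 20 partners of the lamina, 19 were tested, and SYNE2 is left out of the counts because it reached the filter's level in fewer than 3 libraries of the condition where it was lower. Butyrate called 0 of 18 in WT and 0 in KO (background 2.35% and 3.4%), with 2 at an unadjusted p under 0.05 in each (background 18% and 19.8%). The block called 2 in WT and 0 in KO (background 8.61% and 11.7%). Without the libraries numbered 1 there were 3 in WT and 1 in KO (background 11.4% and 13.1%). Between genotypes 5 of 18 were called in untreated and 2 in treated cells, beside 22.6% and 19% of all tested genes. In untreated KO cells EMD, the lamin-binding emerin, was lower at 27.8 ± 4.29 against 90.5 ± 9.52 CPM (-1.70, SE 0.20, adjusted p = 7.68e-05), and so was SUN1, which couples the lamina to the cytoskeleton (-1.30, adjusted p = 0.0107). The lamin-interacting LEMD3 (0.83, adjusted p = 0.0135) was among 3 that were higher. These 3 include PLPP7, at 0.274 ± 0.123 CPM in untreated WT and 2.03 ± 0.773 CPM in untreated KO cells. PLPP7 reached the filter's level in WT only in treated libraries, so its call is not read as a result. It is also in the WT butyrate counts at an unadjusted p, with the block and without the libraries numbered 1. In treated cells EMD (-1.47, adjusted p = 0.000288) and SUN1 (-1.46, adjusted p = 0.00654) were lower and 0 partners were higher (edgeR). The block called 3 as higher there, PLPP7 among them (background 29.2%). The median of the 18, PLPP7 included, stood at 0.22 and 0.26 in these genotype comparisons.

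Of 6 genes for lamin maturation, 5 were tested, and butyrate called 0 in either genotype (background 2.35% in WT and 3.4% in KO). In each genotype 1 had an unadjusted p under 0.05 (background 18% and 19.8%). The block called 1 lower in each (background 8.61% and 11.7%). ZMPSTE24, the protease that trims prelamin A, was higher in KO by 1.57 untreated (SE 0.41, adjusted p = 0.0153) and 1.41 treated (SE 0.41, adjusted p = 0.0288, edgeR). Its level was 57.9 ± 14.1 CPM in untreated WT and 172 ± 61.5 CPM in untreated KO cells. NARF, a prelamin-binding protein, was lower in treated KO cells (-1.41, adjusted p = 0.0264). These calls were 1 of 5 genes in untreated and 2 in treated cells (background 22.6% and 19%). In untreated cells the block called 1 gene lower in KO beside ZMPSTE24 (background 33%).

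Since keratins and vimentin mark epithelial and mesenchymal cells, markers of both were read. Of 20 epithelial and mesenchymal genes, 3 were at 0 in all libraries and 11 were tested. CLDN4, a tight-junction gene, and ESRP2 reached the filter's level in fewer than 3 libraries of a condition where they were lower: for butyrate CLDN4 is left out, and between genotypes both are. Butyrate called 0 of 10 in WT (background 2.35%), with 3 at an unadjusted p under 0.05 (background 18%). In KO it called 1 (background 3.4%), where S100A4 rose by 3.45 (SE 0.67, adjusted p = 0.0203, edgeR). Its level there was low, from 0.560 ± 0.259 to 6.29 ± 4.15 CPM (SD, n = 3). With the block 4 were called in KO (3 higher, 1 lower, background 11.7%). Leaving out the libraries numbered 1 gave 3 in KO and 1 in WT (background 13.1% and 11.4%). In untreated KO cells S100A4 was lower (-2.89, adjusted p = 0.00746), at 0.560 ± 0.259 against 4.26 ± 2.44 CPM. The repressor of epithelial genes ZEB1 was higher (2.38, adjusted p = 1.33e-05), at 31.4 ± 3.48 against 6.00 ± 0.890 CPM. These were 2 of 9 (background 22.6%), and with the block 1 gene was higher and 3 lower in untreated KO cells (background 33%). After butyrate ZEB1 was higher by 1.17 (adjusted p = 0.00235, edgeR), 1 of 9 (background 19%). CLDN4 averaged 0.405 ± 0.324 CPM in untreated and 2.56 ± 1.63 CPM in treated WT cells, and 0.0290 ± 0.0270 and 0.337 ± 0.341 CPM in KO cells (SD, n = 3). The 8 epithelial markers summed to 26.9 to 77.4 CPM over all libraries, most of it EPCAM, with GRHL2 and KRT5 at 0. The 6 fibroblast markers summed to 2.35 to 5.21 CPM in untreated and 44.0 to 157 CPM in treated libraries, most of it COL1A1, with LUM at 0. Their part in the keratin and vimentin values was not tested.

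Genes with the profile nearest to a member were ranked by the root mean square distance of log2 CPM, centred per gene, over the 12 libraries and among the other 15804 tested genes. Nearest to KRT19 were AK3 (0.621) and MBOAT2 (0.627), beside a standard deviation of KRT19 of 5.27 on the same scale. AK3, for example, averaged 73.1 and 51.1 CPM in untreated and treated WT cells and 0 CPM in both KO groups. For LMNA they were OSBPL5 (0.301), FADS3 (0.302) and TUBB6 (0.320), for VIM STN1 (0.258), SYCP2L (0.259) and SLC66A3 (0.260), and for SYNM TMEM51 (0.500), PYGM (0.538) and ZDHHC2 (0.631). The 12 libraries share genotype, treatment and replicate number, so these distances describe the table only.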

How the data were processed

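The authors deposited whole-number counts by gene symbol in 1 table that covers 12 libraries. The unit was read from the values. Per the submitters' processing notes, FastQC 0.12.1, STAR 2.7.11b and the build hg38 were used. The counting tool, annotation, use of strand and filters are not given in the sources used here. Groups and replicate numbers came from the sample titles, columns were matched by library name, and 0 columns were left unused.

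The analysis used edgeR 4.0.16 in R 4.3.3. After filterByExpr (minimum count 10) 15805 genes remained, and TMM scaled the libraries. A quasi-likelihood model gave each group 1 mean and shared the spread among the 12 libraries (biological coefficient of variation 0.384). The F-test was applied to butyrate in WT, butyrate in KO, their difference (the interaction) and KO against WT in each state, with Benjamini-Hochberg adjustment over all tested genes and a threshold of 0.05. Ratios of 2 genes were compared by two-sided exact permutation. The script was tested on simulated data. The alternatives were library-size and RLE scaling, no filter, DESeq2 1.42.0, the replicate block, leaving out each library, and leaving out the libraries numbered 1. Counts of list genes with the block or without the libraries numbered 1, and values within each replicate number, were chosen after seeing the data. A gene that the rule for naming genes selects is not reported here.

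The members, gene lists and tests were chosen with earlier results of these data known. Named genes are the 10 members, SLC48A1, up to 4 called genes per list and comparison with the largest change, the 3 nearest profiles, and tested neighbours of KRT19 and of the KRT8 and KRT18 pair. KRT79, DSP, SYNE2 and ESRP2 were named after their values were seen. Genes that reach the filter's level in fewer than 3 libraries of the condition where they are lower (untreated or treated, WT or KO) are left out of list counts, a rule added after seeing the data.

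Same-numbered libraries deviated together from their group means: the correlation over genes was 0.195 to 0.409 for butyrate in WT, 0.147 to 0.468 for butyrate in KO, 0.210 to 0.361 between untreated genotypes and 0.315 to 0.595 between treated ones. The highest value for unlike numbers was 0.186, 0.123, 0.0692 and 0.343. The labels do not say what a number marks. Replicates of a group differed beyond sampling noise, with a chi-square of at least 40.0 per degree of freedom. Intervals and the limit of 3 counts cover counting error only.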

Additional observations from a re-analysis of the deposited data

How the results depend on the processing

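The number of tested genes called for butyrate rested on the fit: 372 in WT became 1331 by DESeq2, 1361 with the replicate block and 1884 without the libraries numbered 1, and 537 in KO became 1538, 1852 and 2164. Leaving out 1 library gave 43 (without replicate 2 of untreated WT) to 1243 (without replicate 1 of treated WT), and 48 (without replicate 2 of untreated KO) to 1039 (without replicate 1 of treated WT). The interaction went from 0 to 2 with no filter, 86 by DESeq2, 3 with the block, 9 without the libraries numbered 1, and 0 to 2 with 1 library left out. Genes differing between treated genotypes went from 3009 to 4612 with the block. Among the members, butyrate in WT called 1 by DESeq2 and 1 without the libraries numbered 1. In KO it called 3 by DESeq2, 3 with the block, 4 without the libraries numbered 1, and 0 to 2 with 1 library left out. Over 18 alternatives the adjusted p ran from 0.0279 to 0.374 for KRT8 in WT, and in KO from 0.00753 to 0.239 for KRT8, 0.00615 to 0.257 for LMNA, 0.0289 to 0.667 for LMNB1, 0.0322 to 0.382 for SYNM and 0.0243 to 0.804 for NES. The cause was not tested. The block changed no other call of a member in the butyrate or interaction contrasts.

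KRT19 in untreated cells had a log2 fold change of -9.48 against the limit of 3 counts, -14.22 from the edgeR fit, -11.07 against 1 count, and -9.63 to -9.31 with 1 library left out. In treated cells it was -10.80, and -12.73 (without replicate 2 of treated KO) to -10.36 with 1 library left out.

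Small effects changed sign. By library size alone the butyrate effect was 0.0043 for KRT18 in WT, 0.0024 for VIM in KO and 0.074 for LMNB2 in KO. Without the libraries numbered 1 it was 0.19 for KRT18 in WT, and the untreated genotype value of KRT8 was 0.016. With 1 library left out, signs crossed for butyrate in WT for KRT18 (-0.25 to 0.10), VIM (-0.72 to 0.0054), SYNM (-0.25 to 0.36) and LMNB2 (-0.69 to 0.13), and in KO for VIM (-0.51 to 0.38) and LMNB2 (-0.20 to 0.12). They crossed for the interaction of KRT8 (-0.0086 to 0.30), VIM (-0.15 to 0.74), NES (-0.16 to 0.85), LMNB1 (-0.80 to 0.21) and LMNB2 (-0.17 to 0.65). Between untreated genotypes they crossed for KRT8 (-0.22 to 0.022) and NES (-0.80 to 0.15). Between treated genotypes they crossed for KRT8 (-0.10 to 0.23), NES (-0.45 to 0.57), SYNM (-0.055 to 0.84), LMNB1 (-0.18 to 0.80) and LMNB2 (-0.10 to 0.71). The butyrate effects of KRT8, NES and LMNA stayed positive in both genotypes in all 12 such fits. So did those of KRT19 in WT and of KRT10, KRT18 and SYNM in KO. Those of LMNB1 in both genotypes and of KRT10 in WT stayed negative. Depth limits KRT19 in KO and SYNM, which had few counts.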
